A study of Homo sapiens with 20 samples.

Results

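Keratinocytes hold on to the matrix beneath them through integrins, and 36 genes of that attachment machinery were followed here in all 20 libraries. The genes were chosen by function: 16 integrin alpha subunits, 8 integrin beta subunits, 3 genes of the hemidesmosome (CD151, DST and PLEC) and 9 genes of the focal adhesion. All 36 were found among the 57500 genes counted. NTERT is an immortalized human keratinocyte line that retains the ability to differentiate. WT cells carried a control guide RNA, and GCN2KO cells were an early-passage pool edited with CRISPR/Cas9 in EIF2AK4, the gene of GCN2, a kinase that phosphorylates the translation factor eIF2 during amino acid shortage. The study describes guides to exon 2 and to exon 12, and which one made the sequenced pool was not given in the sources used here. A pool can hold cells with different edits. Both genotypes were differentiated in calcium and serum, for 36 h by the methods of the study. Its results text gives a longer time before wounding. Cells were then left unwounded or given a high-density wound (HDW), for which pipet tips were drawn across the monolayer in perpendicular directions. RNA was taken 6 h after wounding. Each of the 4 combinations of genotype and wounding had 5 replicates, and the labels do not say whether the replicates were separate cultures, so p-values measure only the spread between these samples.

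Libraries held between 14083504 and 34611570 gene counts. EIF2AK4 averaged 4355 normalised read counts in WT unwounded and 894 in GCN2KO unwounded cells (log2 fold change -2.28, SE 0.0649, adjusted p = 4.29e-13), and no library crossed over between genotypes. All 8 keratinocyte markers were at 1 TPM or more (TPM is the read count per length of gene, scaled to a fixed total per library) in every group. Their levels were not equal between genotypes. They summed to 22750 to 23220 TPM in WT and 17340 to 20710 TPM in GCN2KO unwounded libraries. After HDW the sums were 20800 to 21570 TPM in WT and 21880 to 23100 TPM in GCN2KO. Log2 fold changes of the 8 in GCN2KO against WT ran from -1.88 to 0.498 unwounded and from -1.13 to 0.515 after HDW. Of the markers of other cell types, PTPRC, which defines leukocytes, was at 0 reads in every library but 1, which held 2 reads, and none of 5 endothelial markers reached 1 TPM. The summed level of 6 melanocyte markers was 3.91 to 5.46 TPM in WT libraries and 8.71 to 14.9 TPM in GCN2KO libraries, with MITF at means of 1.71 and 2.35 TPM in unwounded and wounded WT and 6.27 and 9.28 TPM in unwounded and wounded GCN2KO cells. The 10 leukocyte markers summed to 76.5 to 164 TPM in WT and 40.04 to 107 TPM in GCN2KO libraries, through CD14 and CD68, the only 2 of them at 1 TPM or more. Of 8 fibroblast markers, 1 was at 1 TPM or more in each group. The 8 summed to 11.65 to 17.08 TPM in WT and 9.23 to 14.68 TPM in GCN2KO libraries. The part of these lists in the results was not tested. Some libraries stood apart from their groups for some of the genes followed. GCN2KO unwounded replicates 3 and 5 were lowest of their group for the large cytolinker and talin genes, and GCN2KO HDW replicate 5 was highest of its group for several genes that were low in GCN2KO. Values with and without them are given where they bear on a result.

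Integrins are heterodimers of 1 alpha and 1 beta subunit that bind matrix proteins outside the cell and the cytoskeleton inside it. In basal keratinocytes integrin α6β4 sits in the hemidesmosome, where plectin (PLEC) and the epithelial form of dystonin (DST) tie it to keratin filaments and the tetraspanin CD151 stabilizes it. Integrins with β1 or αV sit in focal adhesions, where talin and kindlin activate them and vinculin, paxillin, zyxin, focal adhesion kinase and integrin-linked kinase connect them to actin and to signaling. Wound-edge keratinocytes are known to use α2β1 for collagen, α3β1 for laminin, α5β1 for fibronectin, and αVβ5 and αVβ6 for vitronectin, fibronectin and latent TGFβ.

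Of the 36 genes, 25 were expressed, defined as a median of at least 1 TPM in at least 1 group. These were 8 of 16 alpha subunits (ITGA1, ITGA2, ITGA3, ITGA4, ITGA5, ITGA6, ITGAV and ITGAE), 5 of 8 beta subunits (ITGB1, ITGB4, ITGB5, ITGB6 and ITGB8), the 3 hemidesmosome genes and the 9 focal adhesion genes. A further 6 had too few reads to reach that level but enough to be tested in at least 1 comparison (ITGA7, ITGA9, ITGA10, ITGAM, ITGB2 and ITGB7), with no more than 36 reads in any library. The remaining 5 could not be tested (ITGA8, ITGA11, ITGAL, ITGAX and ITGB3). ITGA8 had no read in any of the 20 libraries, and the other 4 never exceeded 6 reads. ITGB3, ITGAL and ITGAX, known from platelets and leukocytes, were thus at or near 0. With a limit of 5 TPM the number fell to 22, as ITGA1, ITGA4 and TLN2 dropped out.

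TPM divides reads by the length of all annotated exons of a gene, so the order of genes depends on that length. It exceeds the longest transcript by more for ITGB1 (14561 against 5614 bases) and ITGA3 (9802 against 5479) than for ITGB4 and ITGA6. For those 2 genes the lengths are 6761 against 5896 and 6679 against 5816 bases. Lengths of the longest transcript would place ITGB1 and ITGA3 nearer to ITGB4 and ITGA6. In WT unwounded cells ITGB4 was the most abundant of the 36, with a median of 1088 TPM, followed by its partner ITGA6 with 899.9 TPM. ITGB1 and ITGA3, the pair that forms α3β1, came next with 376 and 348 TPM. The libraries of ITGB4 lay above those of ITGA6, and the ratio of ITGA6 to ITGB4 in WT unwounded cells was 0.834 (range 0.814 to 0.854). The ratio of ITGA3 to ITGB1 averaged 0.938 with a range of 0.860 to 1.01, so by this measure these neighbours overlapped in order. Lengths of the longest transcript would lower that ratio. ITGB6, the epithelial partner of αV, stood at 229 TPM. It lay below ITGB1 but far above ITGB8 (37.6 TPM) and ITGB5 (23.6 TPM), which also pair with αV. Among the activators, TLN1 had a median of 101 TPM and TLN2 one of 1.31 TPM, and FERMT1, the kindlin of epithelia, 103 TPM against 7.05 TPM for FERMT2. On GRCh38 the expressed genes that were DE genes in any comparison lie at chr2:160099667-160200313 (ITGB6), chr7:20330702-20415754 (ITGB8), chr3:124761948-124901418 (ITGB5), chr2:181457202-181538940 (ITGA4), chr20:6074845-6123214 (FERMT1) and chr15:62390526-62844631 (TLN2), and reads in all their annotated exons were summed. Gene counts cannot tell apart the isoforms of ITGA6, ITGB4, DST or PLEC.

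**Figure D1:**
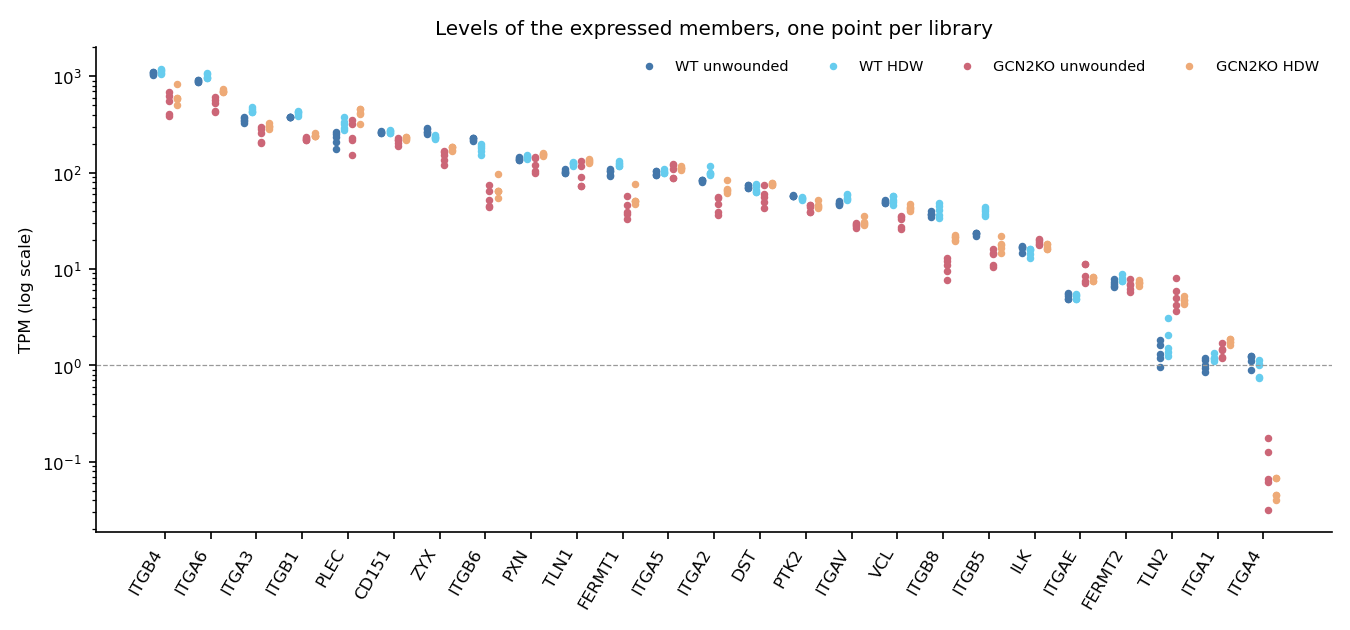
Levels of the 25 expressed genes in TPM on a log axis, 1 point per library, coloured by group, with genes ordered by their highest group median and a dashed line at 1 TPM. ITGB4 and ITGA6 lie at the top in all groups, and ITGA4 has medians of 1.21 and 1.01 TPM in WT against 0.067 and 0.046 TPM in GCN2KO.

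Sequence before a RefSeq start site is shown for 5 of the genes whose mRNA differed most between the genotypes. Each line gives the 250 bases before a start site of RefSeq on GRCh38.p14, written 5′ to 3′ along the gene, with capitals marking matches to the motifs searched on both strands. The motifs were TGANTCA (AP-1), TGACGTCA (CRE), TGATGNAA (ATF4-CEBP composite), GGAATG (TEAD) and GGGCGG (GC box). The ITGB6 promoter lies at chr2:160200273-160200522, minus strand, that of ITGB8 at chr7:20330650-20330899, plus strand, that of ITGA4 at chr2:181457136-181457385, plus strand, the most upstream of those listed for ITGB5 at chr3:124901419-124901668, minus strand, and that of TLN2 at chr15:62390300-62390549, plus strand.
ITGB6: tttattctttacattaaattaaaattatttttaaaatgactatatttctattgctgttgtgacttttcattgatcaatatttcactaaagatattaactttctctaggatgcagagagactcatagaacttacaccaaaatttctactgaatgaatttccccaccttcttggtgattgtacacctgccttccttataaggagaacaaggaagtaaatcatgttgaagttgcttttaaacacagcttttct
ITGB8: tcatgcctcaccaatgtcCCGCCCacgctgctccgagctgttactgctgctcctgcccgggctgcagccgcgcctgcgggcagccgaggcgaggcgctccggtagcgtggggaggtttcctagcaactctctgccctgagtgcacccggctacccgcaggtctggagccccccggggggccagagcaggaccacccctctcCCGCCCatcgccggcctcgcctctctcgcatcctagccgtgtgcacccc
ITGA4: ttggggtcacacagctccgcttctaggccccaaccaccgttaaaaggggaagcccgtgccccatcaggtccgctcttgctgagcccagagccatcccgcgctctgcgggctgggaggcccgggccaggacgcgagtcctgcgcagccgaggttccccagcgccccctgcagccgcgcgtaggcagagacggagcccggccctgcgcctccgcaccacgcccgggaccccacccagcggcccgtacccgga
ITGB5: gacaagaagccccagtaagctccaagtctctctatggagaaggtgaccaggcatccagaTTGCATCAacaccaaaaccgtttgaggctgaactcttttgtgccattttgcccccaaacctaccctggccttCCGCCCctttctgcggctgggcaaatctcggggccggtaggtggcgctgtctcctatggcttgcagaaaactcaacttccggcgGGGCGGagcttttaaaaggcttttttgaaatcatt
TLN2: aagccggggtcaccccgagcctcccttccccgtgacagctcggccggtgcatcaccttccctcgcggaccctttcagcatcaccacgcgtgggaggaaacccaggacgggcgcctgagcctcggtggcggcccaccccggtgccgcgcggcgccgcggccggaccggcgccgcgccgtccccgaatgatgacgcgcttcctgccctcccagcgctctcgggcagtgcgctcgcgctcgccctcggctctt
The ITGB6 sequence was 30% G and C, a content at or under which only 1.75% of all 35116 promoters lay, whereas the ITGB8, ITGA4 and TLN2 sequences were 71.2%, 72.8% and 74.4% G and C. Of the 36 genes, 24 had 32 promoter entries, and FERMT1 was among those without one. The ATF4-CEBP composite letters occurred in 1 of the 32 entries, that of ITGB5 shown above, against 3.14% of all promoters. The GC box was in 16 entries of 15 genes (42.6% of all promoters) and the TEAD letters in 6 (11.9%). AP-1 letters, present in 6.57% of all promoters, and CRE letters, present in 1.65%, were in none of the 32. These are matches of letters in a short window and do not show binding. By the gene coordinates given above, the ITGB6, ITGB8, ITGA4 and TLN2 windows run into the annotated gene. For ITGB8 and ITGA4 most of the window lies inside it.

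The first question was how loss of GCN2 altered these genes in unwounded cells. Most of the machinery was lower in GCN2KO: 17 of the 30 genes tested were lower and 5 were higher at an adjusted p of at most 0.05, or 56.7% and 16.7%, against 33.1% lower and 33.4% higher among all 15348 genes tested. The median log2 fold change was -0.30 over the 30 genes and 0.0042 over all genes. A DE gene also had an absolute log2 fold change of 1 or more, the limit used in the study. By that rule ITGA4, ITGB6, ITGB8 and FERMT1 were lower and TLN2 and ITGB7 were higher, so 4 and 2 of 30, against 8.22% lower and 8.21% higher among all genes. ITGA4 had too few reads to be tested within GCN2KO. It passed the filter through the WT libraries, so its direction is not separate support. The 5 WT and 5 GCN2KO libraries did not overlap for 20 of 30 genes (66.7%, against 53.3% of all genes). In bulk RNA, fewer cells expressing a gene and less RNA per cell cannot be told apart.

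Among the beta subunits, every one at 1 TPM or more fell. ITGB6, which pairs with αV in migrating epithelium, had 8631, 9183, 9272, 8375 and 9191 normalised read counts in the 5 WT unwounded libraries. The GCN2KO unwounded libraries had 3117, 1798, 2353, 1795 and 2759. All GCN2KO libraries lay far below the lowest WT library (log2 fold change -1.91, SE 0.13, adjusted p = 2.79e-09). ITGB8, an αV partner whose dimer binds latent TGFβ, had 4173, 3658, 3997, 3739.6 and 3950.0 in WT and 1339, 1354, 916, 1183 and 1090.0 in GCN2KO libraries. The groups were far apart, with means of 3904 ± 207 and 1176 ± 183 (SD, n = 5; log2 fold change -1.73, SE 0.0958, adjusted p = 3.1e-10). For ITGB5, a vitronectin receptor subunit, WT libraries had 1049, 992, 1089, 1063 and 1052 and GCN2KO libraries 761, 662, 539, 651 and 535, without overlap (log2 fold change -0.74, SE 0.0904, adjusted p = 2.4e-06).

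ITGB4, the hemidesmosomal subunit, had 50886, 49429.6, 51557, 51164 and 48186 normalised read counts in WT unwounded and 33423, 28988, 20404, 26444 and 20699 in GCN2KO unwounded libraries. The GCN2KO libraries spread more widely than the WT libraries and all lay lower (log2 fold change -0.95, SE 0.118, adjusted p = 2.78e-06). ITGB1, the common partner of most alpha subunits, had 37399, 37897, 38836, 37503 and 38395 in WT. In GCN2KO the values were 24368, 23548, 24887, 22800.0 and 23497. The fall was tight among replicates (log2 fold change -0.67, SE 0.0611, adjusted p = 8.16e-08). ITGB7, a leukocyte subunit that pairs with α4 or αE, went up from 17.9, 8.92, 10.9, 19.5 and 4.82 to 40.9, 35.3, 20.2, 30.3 and 27.9 normalised read counts (log2 fold change 1.30, SE 0.31, adjusted p = 0.0015). It never exceeded 36 reads in a library, and 42.3% of its exonic bases overlap ZNF740 on the other strand, so its reads may come from either gene.

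Alpha subunits of the keratinocyte receptors fell together. ITGA6, partner of β4, had 42093, 39912, 43167, 41160.2 and 40630.4 normalised read counts in WT unwounded and 25282, 28318, 22636, 26597 and 21472 in GCN2KO unwounded libraries, again without overlap (log2 fold change -0.73, SE 0.081, adjusted p = 7.53e-07). ITGA2, of the collagen receptor, had 4531, 4609, 4438, 4453 and 4603 in WT and 3155, 3026, 2241, 2624 and 2302 in GCN2KO (log2 fold change -0.76, SE 0.0898, adjusted p = 1.6e-06). The laminin receptor subunit ITGA3 fell less, from 23327, 25239, 22479, 25480.1 and 23443 to 18285, 19881, 15623, 19518 and 15108 (log2 fold change -0.44, SE 0.0855, adjusted p = 0.000289). Each of these 3 subunits was lower in every GCN2KO library than in any WT library. ITGAV, which pairs with β5, β6 and β8, had 6081, 6442, 6803, 6295 and 6562 in WT and 4213, 3893, 4302, 3634 and 4112 in GCN2KO (log2 fold change -0.67, SE 0.0634, adjusted p = 1.24e-07). ITGA5, of the fibronectin receptor, did not follow them. Its values were 4895, 5351, 4827, 5242 and 4800.1 in WT and 5897, 6251, 5108, 6165 and 4872 in GCN2KO, which overlapped (log2 fold change 0.18, 95% interval 0.01 to 0.341, adjusted p = 0.0572). Without GCN2KO unwounded replicate 3 the ITGA5 value was 0.21 (edgeR adjusted p = 0.0234), and without replicate 5 it was 0.23 (adjusted p = 0.0115).

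ITGA4 showed the largest change of the 30 genes tested, at a low level. The α4 subunit is best known from leukocytes, where it binds VCAM1 and fibronectin. Reads in WT unwounded libraries came to 65.6, 89.2, 92.99, 91.05 and 81.9 after normalisation. In GCN2KO unwounded libraries they came to 13.6, 4.599, 10.5, 5.04 and 2.53. Every GCN2KO library held 12 or fewer raw reads (log2 fold change -3.54, SE 0.265, adjusted p = 8.41e-09), and 26.4% of the exonic bases of ITGA4 overlap CERKL on the other strand. ITGA1, of a collagen receptor, and ITGAE, the αE subunit that binds E-cadherin, went the other way, with log2 fold changes of 0.52 (SE 0.115, adjusted p = 0.000852) and 0.92 (SE 0.149, adjusted p = 4.49e-05). Both had GCN2KO libraries wholly above WT libraries. ITGA1 shares 13.2% of its exonic bases with neighbouring genes, and ITGAE shares 7.65% with HASPIN and another gene on the other strand. ITGAM, with at most 36 reads in a library, had 39.7, 24.98, 30.2, 33.4 and 25.1 in WT and 20.5, 18.4, 21.1, 19.3 and 27.02 in GCN2KO, with overlap (log2 fold change -0.49, SE 0.195, adjusted p = 0.0363), a call that was lost in 7 of the 10 fits that left out 1 library.

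CD151, DST and PLEC changed less than α6 and β4. CD151 had 6816, 7038, 7228, 7241 and 6989 normalised read counts in WT unwounded and 6452, 5917, 6254, 5990.4 and 5525 in GCN2KO unwounded libraries, a small fall without overlap (log2 fold change -0.22, SE 0.0604, adjusted p = 0.00373). DST had 24644, 23269, 24926, 22913 and 23827 in WT and 19746, 24483, 16405, 20589 and 17922 in GCN2KO (log2 fold change -0.27, SE 0.0925, adjusted p = 0.0184). The DST groups overlapped, and without GCN2KO unwounded replicates 3 and 5 the value was -0.14 (adjusted p = 0.101). PLEC, the largest of the 3 by reads, had 30407, 29755, 21103, 27009 and 24289 in WT and 28289.9, 37729.7, 20425, 41634 and 27975 in GCN2KO libraries (log2 fold change 0.24, 95% interval -0.094 to 0.572, adjusted p = 0.191). It overlapped between genotypes, and without the same 2 libraries it was higher in GCN2KO (0.44, adjusted p = 0.00642).

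In the focal adhesion the activators of the integrin tail split. FERMT1 (kindlin-1), whose loss causes Kindler syndrome, had 6437, 7414, 6696, 7709.5 and 7343 normalised read counts in WT unwounded and 4235, 3229.7, 2642, 2842 and 2827 in GCN2KO unwounded libraries. All 5 GCN2KO libraries lay below the WT libraries (log2 fold change -1.17, SE 0.11, adjusted p = 1.15e-07). TLN2, the second talin, had 133, 182, 109.9, 206 and 147 in WT. In GCN2KO it had 588, 898, 469, 669.9 and 512. Every GCN2KO library exceeded every WT library (log2 fold change 1.99, SE 0.184, adjusted p = 9.17e-08). TLN1, the main talin of these cells, had 7085, 6736, 6998, 7417 and 6784 in WT and 6440.4, 9099, 5726, 8239.6 and 5375 in GCN2KO, where replicates 3 and 5 were the lowest of the 10 (log2 fold change -0.0023, 95% interval -0.257 to 0.253, adjusted p = 0.989). Of the linkers, ZYX (zyxin) fell from 6540.1, 5723, 6478, 5962 and 5941 to 3621, 3774, 3447, 3756 and 2962, with no overlap (log2 fold change -0.80, SE 0.0755, adjusted p = 1.23e-07). VCL (vinculin) and PTK2 (focal adhesion kinase) fell by 0.59 and 0.34 on the log2 scale (SE 0.0697 and 0.0580, adjusted p = 1.54e-06 and 7.52e-05). ILK was higher by 0.30 (SE 0.0819, adjusted p = 0.00399), but 78.5% of its exonic bases overlap other genes, TAF10 among them, and strand was not stated. FERMT2 and PXN did not pass the test.

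**Figure D2:**
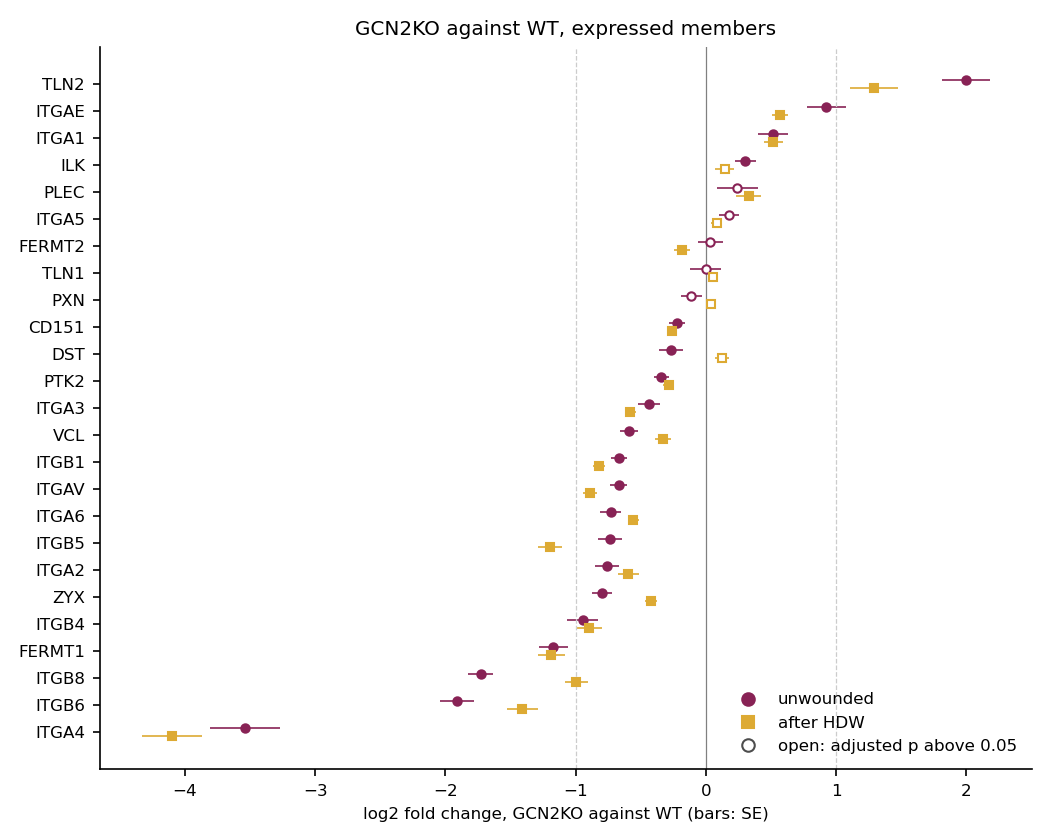
Log2 fold change of GCN2KO against WT for the 25 expressed genes, unwounded (circles) and after HDW (squares), with bars of 1 SE, open symbols for adjusted p above 0.05 and dashed lines at a change of 1. ITGA4, ITGB6, ITGB8 and FERMT1 lie lowest when unwounded, and TLN2 lies highest in both states.

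The second question was whether the genotypes also differed 6 h after HDW. Of 31 genes tested, 16 were lower and 7 were higher in GCN2KO HDW cells than in WT HDW cells, or 51.6% and 22.6%, against 35.8% lower and 35.9% higher among all 15855 genes. The median was -0.26, against 0.002 over all genes. DE genes were ITGA4, ITGB6, ITGB5 and FERMT1 in the lower direction and TLN2 and ITGA10 in the higher (4 and 2 of 31, against 7.83% and 7.10% of all genes). ITGA4 had too few reads to be tested within GCN2KO, and ITGA10 too few within WT. Each passed the filter through the group where it was high, so their directions are not separate support. The study itself singled out ITGA4, ITGB5 and ITGB6 on these samples, so their direction here is not independent evidence. Libraries of the genotypes did not overlap for 18 of 31 genes (58.1%, against 57.2% of all genes).

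ITGB6 remained low after wounding. WT HDW libraries had 8020.5, 6167, 6931, 7657 and 7566 normalised read counts and GCN2KO HDW libraries 2178, 2623, 2535, 2581 and 3753 (log2 fold change -1.41, SE 0.119, adjusted p = 1.25e-07). The highest GCN2KO value is replicate 5, and without it the log2 fold change was -1.55. ITGB5 had 2027, 1595, 1733, 1951 and 1889 in WT HDW and 664, 805, 809, 749 and 975 in GCN2KO HDW libraries (log2 fold change -1.20, SE 0.0898, adjusted p = 4.19e-08). It passed the limit of 1 only after wounding. ITGB8 had 4868, 3524, 3912, 5185 and 4544 in WT HDW and 2265, 2297, 2088, 2063 and 2320.4 in GCN2KO HDW, all of the latter below the former (log2 fold change -0.996, SE 0.089, adjusted p = 2.16e-07), which left it just short of the limit of 1. For ITGB4 the values were 56758, 49334, 51515, 56213 and 55145 in WT HDW and 23742, 28075, 27821, 26703 and 37892 in GCN2KO HDW (log2 fold change -0.90, SE 0.0985, adjusted p = 1.65e-06), and without GCN2KO HDW replicate 5 the change was -1.02. ITGB1 had 44285, 39098, 42520.3, 45399 and 45063 in WT HDW and 24235, 24595, 24064, 24166 and 25308 in GCN2KO HDW, again with no overlap (log2 fold change -0.82, SE 0.0458, adjusted p = 2.86e-09).

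The αV subunit itself was lower too. ITGAV had 8203, 7008, 7301, 8026 and 7677 normalised read counts in WT HDW and 3893, 3991, 4033, 4058 and 4630.3 in GCN2KO HDW libraries (log2 fold change -0.89, SE 0.0561, adjusted p = 8.61e-09), so that αV and all of its expressed partners (β1, β5, β6 and β8) were lower in wounded GCN2KO cells. ITGA6 had 49848, 44568, 45992, 50744 and 47333 in WT HDW and 32039, 32578, 31652, 32409 and 33422 in GCN2KO HDW (log2 fold change -0.56, SE 0.0439, adjusted p = 6.71e-08). ITGA3 had 29293, 32253, 31516, 30091 and 30227 in WT HDW and 20174, 20939, 20730.3, 19127 and 21504 in GCN2KO HDW (log2 fold change -0.58, SE 0.0437, adjusted p = 4.29e-08). Both subunits of laminin receptors kept the genotypes apart in every library. ITGA2 had 5529, 5123, 5472, 6599 and 5631 in WT HDW and 3406, 3739, 3536, 3576 and 4509 in GCN2KO HDW (log2 fold change -0.59, SE 0.079, adjusted p = 1.1e-05). ITGA4 had 85.1, 56.4, 56.5, 77.8 and 77.8 in WT HDW and 5.004, 3.35, 5.03, 3.34 and 2.87 in GCN2KO HDW (log2 fold change -4.10, SE 0.231, adjusted p = 3.17e-09), with at most 6 raw reads in any GCN2KO HDW library. ITGA5, at 5196, 5618, 5420.3, 5244 and 5495 in WT HDW and 6091, 5755, 5718, 5671 and 5328 in GCN2KO HDW, overlapped between genotypes as it had before wounding (log2 fold change 0.083, 95% interval -0.007 to 0.173, adjusted p = 0.0898), but without GCN2KO HDW replicate 5 it was called higher (0.11, adjusted p = 0.0165).

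FERMT1 had 8407, 9426, 9209, 8497 and 9009 normalised read counts in WT HDW and 3399.5, 3658, 3587, 3588 and 5321 in GCN2KO HDW libraries (log2 fold change -1.19, SE 0.102, adjusted p = 1.51e-07), and without GCN2KO HDW replicate 5 the change was -1.32. TLN2 had 146, 349, 241, 159.5 and 179 in WT HDW and 499, 492, 539, 528 and 580.3 in GCN2KO HDW (log2 fold change 1.29, SE 0.182, adjusted p = 2e-05). FERMT1 and TLN2 thus kept opposite directions after wounding. TLN1 had 8765, 8688, 8645, 9046 and 8523 in WT HDW and 9222, 8961, 9373, 9168 and 8504 in GCN2KO HDW (log2 fold change 0.051, 95% interval -0.03 to 0.132, adjusted p = 0.239). ZYX had 5744, 5038, 5413, 5392 and 5397 in WT HDW and 4228, 4235, 4135, 3802 and 3755 in GCN2KO HDW, lower in GCN2KO in every library (log2 fold change -0.42, SE 0.0471, adjusted p = 2.08e-06). VCL, PTK2 and FERMT2 fell by 0.33, 0.29 and 0.18 on the log2 scale (the last a call lost without GCN2KO HDW replicate 3), and ITGA1, ITGAE and ITGB7 rose by 0.52, 0.57 and 0.83.

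CD151, DST and PLEC again differed little between genotypes after HDW. CD151 had 7054, 7452, 7472, 7068 and 7631 normalised read counts in WT HDW and 5949, 6199.7, 6259, 5957 and 6173 in GCN2KO HDW (log2 fold change -0.26, SE 0.0368, adjusted p = 1.75e-05). DST had 24555, 20858, 21815, 26101 and 23197 in WT HDW and 25872, 24832, 24539, 26010.4 and 25554 in GCN2KO HDW (log2 fold change 0.12, 95% interval 0.001 to 0.244, adjusted p = 0.0659). PLEC had 34505, 44561, 40174, 38700.3 and 33788 in WT HDW and 53962, 54127, 47168, 37727 and 47562 in GCN2KO HDW and was higher in GCN2KO, with overlap (log2 fold change 0.33, SE 0.097, adjusted p = 0.00766). ITGA10, of a collagen receptor known from cartilage, had 7.59, 8.41, 6.75, 8.97 and 12.97 in WT HDW and 20.02, 19.2, 9.23, 40.1 and 10.5 in GCN2KO HDW (log2 fold change 1.02, SE 0.368, adjusted p = 0.0231). Its groups overlapped at 24 or fewer reads, and the call was lost without WT HDW replicate 3. ITGAM, with 5 to 31 raw reads, was higher in GCN2KO HDW than in WT HDW (log2 fold change 0.94, SE 0.325, adjusted p = 0.0181), the reverse of unwounded cells, and lost the call without GCN2KO HDW replicate 1.

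**Figure D3:**
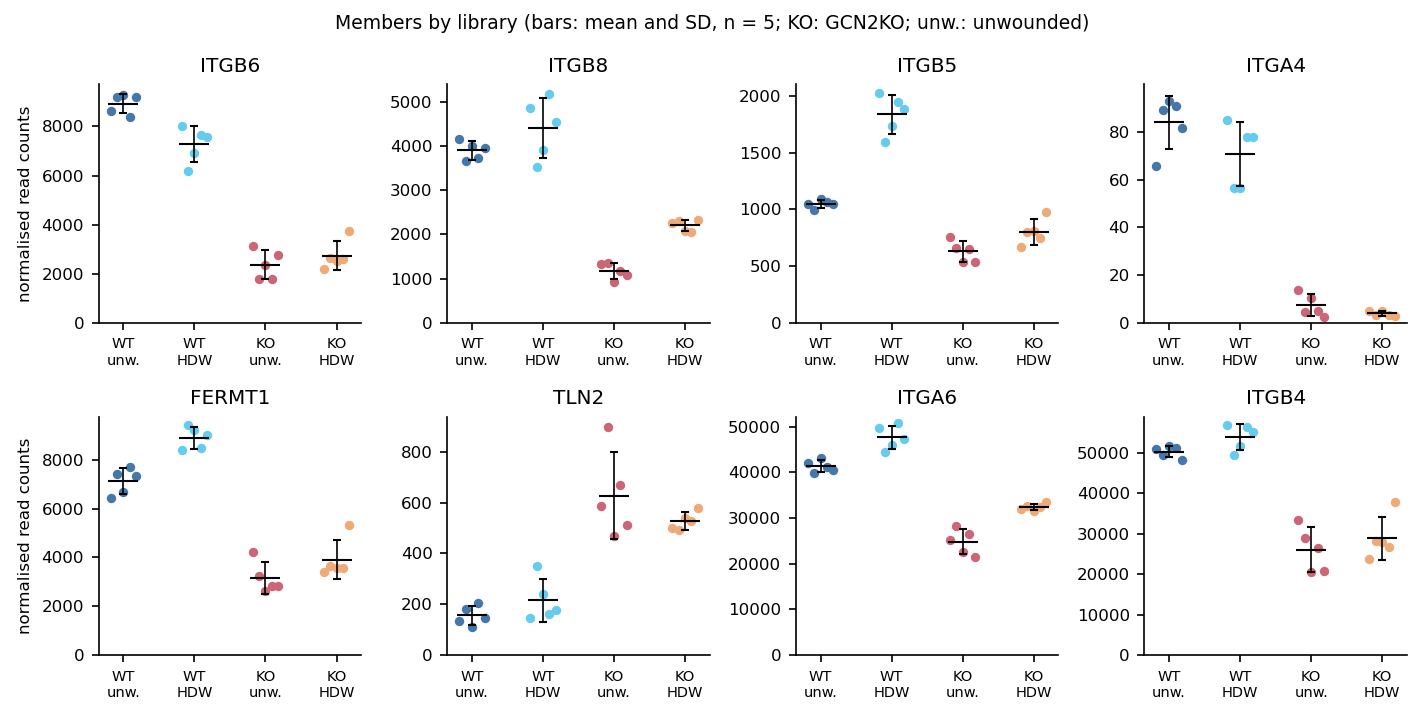
Normalised read counts of 8 genes in each library by group, with the mean and SD of 5 replicates on axes that start at 0. ITGB6, ITGB8, ITGB5, ITGA4, FERMT1, ITGA6 and ITGB4 lie lower and TLN2 higher in all GCN2KO than in all WT libraries of the same state, and GCN2KO HDW replicate 5 stands above the rest of its group for ITGB6 and FERMT1.

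The third question was what wounding did to these genes in WT cells. Wounding raised 13 of 30 genes and lowered 3 (43.3% and 10%, against 26.1% higher and 25.2% lower among all 15348 genes). The changes were small, with a median of 0.11 over the 30 genes against -0.0024 over all genes. None of the 13 reached a log2 fold change of 1 (2.62% of all genes did), and the 1 DE gene in the lower direction (1.55% of all genes) was ITGAM. Libraries of the states did not overlap for 12 of 30 genes (40%, against 36.9% of all genes). ITGB5 had the largest rise, from a mean of 1049 ± 35.6 to 1839 ± 174 normalised read counts (SD, n = 5; log2 fold change 0.80, SE 0.0572, adjusted p = 2.26e-08), and every HDW library exceeded every unwounded one. ITGB6 fell, from 8930.1 ± 402 to 7268 ± 730.2, also without overlap (log2 fold change -0.30, SE 0.0588, adjusted p = 0.000536). The αV partners therefore moved in opposite directions in the same libraries. ITGAV (log2 fold change 0.24, SE 0.0443, adjusted p = 0.000272) and ITGB1 (log2 fold change 0.18, SE 0.0403, adjusted p = 0.0013) rose slightly. ITGB8 did not pass the test (log2 fold change 0.17, 95% interval -0.006 to 0.35, adjusted p = 0.0996), nor did ITGB4 (log2 fold change 0.096, 95% interval 0.005 to 0.186, adjusted p = 0.0717).

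Alpha subunits of the laminin, collagen and fibronectin receptors also rose in WT, ITGA5 the least of those called. ITGA3 rose from 23994 ± 1304 to 30676 ± 1189 normalised read counts (log2 fold change 0.35, SE 0.042, adjusted p = 5.06e-06) and ITGA2 from 4527 ± 80.6 to 5671 ± 553 (log2 fold change 0.32, SE 0.0534, adjusted p = 0.000126), each without overlap. ITGA6 rose as well (log2 fold change 0.20, SE 0.0407, adjusted p = 0.000693). ITGA5 rose by 0.10 and ITGA1 by 0.26 on the log2 scale, with overlapping groups (adjusted p = 0.0417 and 0.0451), and both lost the call when 1 of several libraries was left out (ITGA5 in 6 of 10 fits). In the hemidesmosome PLEC rose from 26513 ± 3877 to 38346 ± 4405 (log2 fold change 0.53, SE 0.0953, adjusted p = 0.000259). CD151 (log2 fold change 0.052, 95% interval -0.019 to 0.122, adjusted p = 0.208) and DST (log2 fold change -0.04, 95% interval -0.154 to 0.074, adjusted p = 0.56) did not pass the test. Among focal adhesion genes TLN1 and FERMT1 rose together, by 0.32 each on the log2 scale (SE 0.0343 and 0.0493, adjusted p = 1.86e-06 and 6.27e-05), whereas ZYX fell (log2 fold change -0.19, SE 0.0444, adjusted p = 0.00256). FERMT2 rose by 0.22 and PXN by 0.11, though 23.8% of the exonic bases of PXN overlap PXN-AS1 and another gene on the other strand. ITGAM went from 39.7, 24.98, 30.2, 33.4 and 25.1 to 5.06, 10.1, 18.6, 4.99 and 10.4 normalised read counts (log2 fold change -1.60, SE 0.292, adjusted p = 0.000297), a change that rests on 5 to 36 raw reads a library.

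In GCN2KO cells wounding raised 10 of 30 genes and lowered 1, or 33.3% and 3.33%, against 11.9% higher and 10.8% lower among all 15791 genes. None was a DE gene (0.475% higher and 0.196% lower among all genes). The median was 0.22, against -0.001 over all genes. The libraries did not overlap for 6 of 30 genes (20%, against 15.2% of all genes). ITGB8 rose the most, from 1176 ± 183 to 2207 ± 122 normalised read counts (SD, n = 5; log2 fold change 0.92, SE 0.0976, adjusted p = 0.000112). ITGA6 went from 24861 ± 2809.7 to 32419.7 ± 664 (log2 fold change 0.39, SE 0.0794, adjusted p = 0.00476) and ITGA2 from 2669.6 ± 413 to 3753 ± 439 (log2 fold change 0.50, SE 0.107, adjusted p = 0.00619). VCL rose by 0.39 (SE 0.0728, adjusted p = 0.00301). These 4 genes had no overlap between states, and they were also the called genes that were still called without GCN2KO unwounded replicates 3 and 5.

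The other 7 calls in GCN2KO were less stable. DST and PLEC rose by 0.36 and 0.63 (adjusted p = 0.0150 and 0.0149) with all libraries, and by 0.24 and 0.43 without them (adjusted p = 0.0578 and 0.0665). ITGB5 (log2 fold change 0.36, SE 0.115, adjusted p = 0.0371), TLN1 (log2 fold change 0.38, SE 0.125, adjusted p = 0.0398), PXN, ITGA1 and ILK, the 1 gene that fell, also lost the call without them, with values of 0.22, 0.20, 0.17, 0.18 and -0.16 (adjusted p from 0.1 to 0.225). Of 10 fits that left out 1 library of either state, ITGA1 and ILK lost the call in 9, TLN1 and PXN in 7 and ITGB5 in 6, while DST and PLEC kept it in all 10. Without both, 4 genes were higher and 1 lower, and the lower one was TLN2 (-0.43, adjusted p = 0.0405), which was not called with all libraries (log2 fold change -0.23, 95% interval -0.538 to 0.075, adjusted p = 0.251). Leaving out 1 library at a time, the number higher ranged from 6 to 12. It was 12 without GCN2KO unwounded replicate 2, 11 without replicate 4, and 6 without GCN2KO unwounded replicates 3 or 5 or GCN2KO HDW replicates 2, 3 or 4. ITGB6 (log2 fold change 0.22, 95% interval -0.128 to 0.57, adjusted p = 0.338), ITGB4 (log2 fold change 0.16, 95% interval -0.151 to 0.473, adjusted p = 0.44), ITGB1 (log2 fold change 0.05, 95% interval -0.072 to 0.171, adjusted p = 0.549), ITGA3 (log2 fold change 0.22, 95% interval 0.041 to 0.405, adjusted p = 0.0716), FERMT1 (log2 fold change 0.32, 95% interval 0.021 to 0.623, adjusted p = 0.109) and ZYX (log2 fold change 0.21, 95% interval 0.049 to 0.371, adjusted p = 0.0581) did not pass the test, which does not show that they were unaltered.

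A direct test of the difference, the interaction of genotype and HDW over all 20 libraries, was passed by 6 of 31 genes. The signed difference, GCN2KO minus WT, was positive for 5 and negative for 1 (16.1% and 3.23%, against 11.2% and 12.5% of all 16536 genes). ITGB8 differed most clearly, with a change of 0.17 in WT and 0.92 in GCN2KO (difference 0.74, SE 0.135, adjusted p = 0.000312). ITGB5 was the 1 gene that rose less in GCN2KO, by 0.36 against 0.80 in WT (difference -0.46, SE 0.133, adjusted p = 0.0143). The ZYX value was -0.19 in WT and 0.21 in GCN2KO (difference 0.38, SE 0.0887, adjusted p = 0.00271). The response of DST differed by 0.39 (adjusted p = 0.0121) and that of VCL by 0.27 (adjusted p = 0.0419), and both fell short without GCN2KO unwounded replicates 3 and 5 (adjusted p = 0.0561 and 0.209). The VCL call was also lost in 14 of the 20 fits that left out 1 library. ITGAM, the 1 DE gene by this test (1.16% of all genes higher, 2.15% lower), had -1.60 in WT and -0.15 in GCN2KO, where it was not called (difference 1.44, SE 0.375, adjusted p = 0.00688), on few reads. ITGB6 fell after wounding in WT but its interaction did not reach the threshold (log2 fold change 0.51, 95% interval 0.121 to 0.891, adjusted p = 0.0511), and the same held for ITGAV (log2 fold change -0.22, 95% interval -0.388 to -0.043, adjusted p = 0.0635) and TLN2 (log2 fold change -0.69, 95% interval -1.277 to -0.113, adjusted p = 0.0768). Without GCN2KO HDW replicate 5 ITGAV passed (-0.26, adjusted p = 0.018), and without GCN2KO unwounded replicates 3 and 5 TLN2 passed (-0.91, adjusted p = 0.0258).

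**Figure D4:**
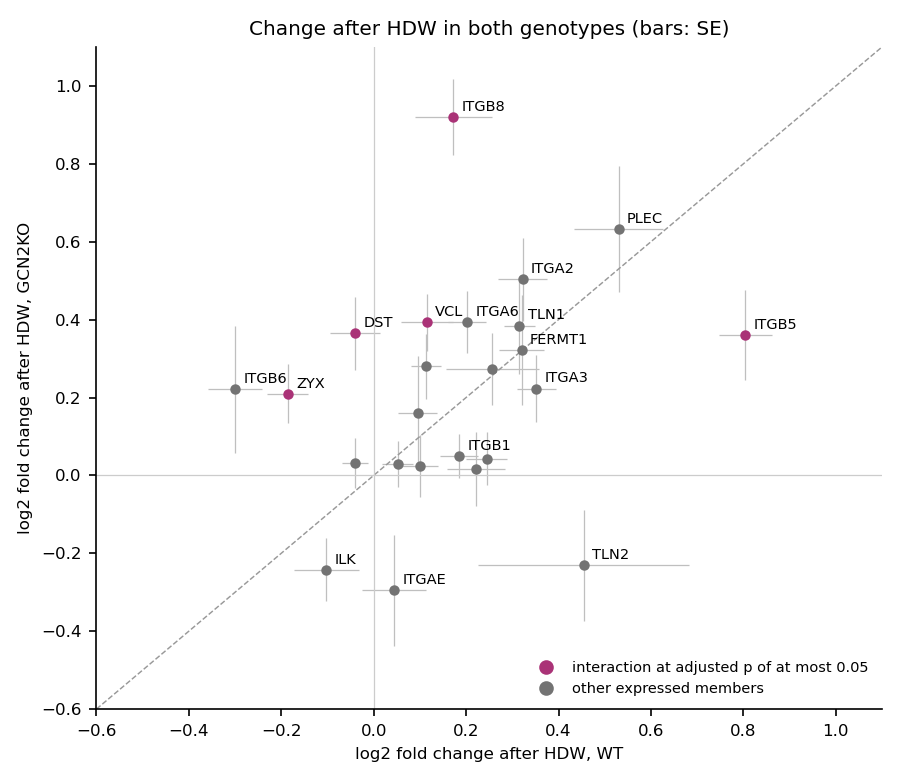
Log2 fold change after HDW in WT (horizontal) and GCN2KO (vertical) for expressed genes tested in both, with bars of 1 SE, a dashed line of equal change and coloured points where the interaction had an adjusted p of at most 0.05. ITGB8, DST, VCL and ZYX lie above the line and ITGB5 below it.

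The makeup of the integrin mRNA pool is given as a description. Shares and ratios between genes depend on the exon lengths used for TPM. These exceed the longest transcript by more for ITGB1 (14561 against 5614 bases) than for ITGB4 (6761 against 5896). Lengths of the longest transcript would give ITGB1 a larger and ITGB4 a smaller share of the beta sum. Summed TPM of the 8 beta subunits averaged 1738 in unwounded and 1798 in wounded WT cells, and 834 and 972 in unwounded and wounded GCN2KO cells. The alpha sums, in the same order, were 1490.3, 1715, 953 and 1231. ITGB4 made up 61.9%, 62.4%, 62.8% and 63.4% of the beta sum in that order of groups, with SDs between 0.54 and 5.02 percentage points. The share of ITGB6 was 12.9% ± 0.612 in unwounded and 9.83% ± 0.381 in wounded WT cells, and 6.81% ± 1.75 and 7.01% ± 0.50 in unwounded and wounded GCN2KO cells (SD, n = 5). ITGB1 took up 21.7% in WT unwounded and 27.4% in GCN2KO unwounded cells. Among alpha subunits ITGA6 held 60.2% in WT unwounded and 53.7% in GCN2KO unwounded cells, while ITGA5 held 6.61% and 11.1%, with no overlap between these libraries. The ratio of ITGB6 to ITGB5 was 9.60 (range 8.87 to 10.4) in unwounded and 4.45 (4.35 to 4.51) in wounded WT cells, and 4.30 (3.06 to 5.81) and 3.82 (3.53 to 4.34) in unwounded and wounded GCN2KO cells. The ratio of FERMT1 to FERMT2 was 14.3 in WT unwounded and 6.45 in GCN2KO unwounded cells, and that of TLN1 to TLN2 was 77.2 and 18.4.

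**Figure D5:**
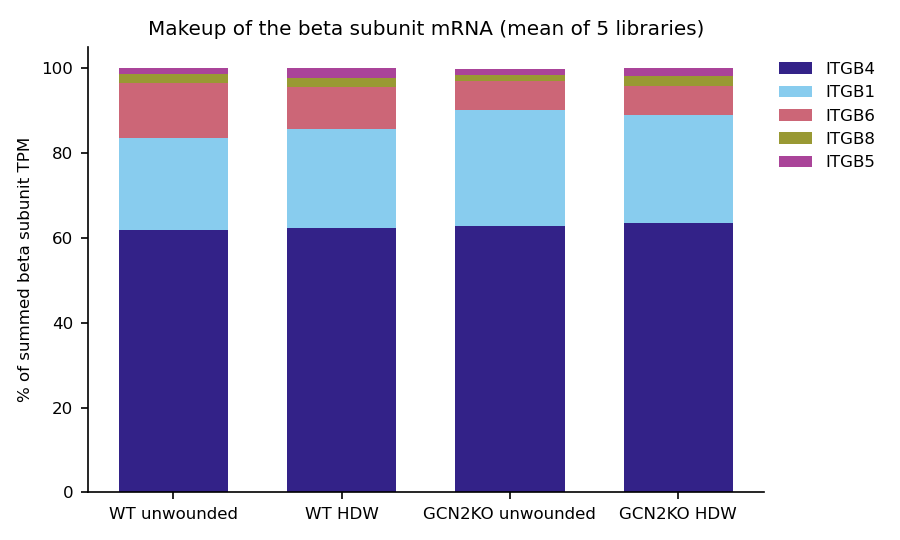
Share of the summed beta subunit TPM held by each expressed beta subunit, as the mean of 5 libraries per group in stacked bars from 0 to 100%. Shares depend on the exon lengths used for TPM. ITGB4 stays between 61.9% and 63.4% in all 4 groups, and ITGB6 goes from 12.9% in WT unwounded to 6.81% in GCN2KO unwounded cells.

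Other genes of the pathway, 130 in all with 30 integrin ligands among them, were taken from lists chosen by function. In unwounded cells 56 of 115 tested were lower and 28 higher in GCN2KO (48.7% and 24.3%, against 33.1% and 33.4% of all genes). After HDW 54 of 114 were lower and 33 higher (47.4% and 28.9%, against 35.8% and 35.9% of all genes). COL17A1, the collagen of the hemidesmosome, was lower in GCN2KO, both in unwounded cells (log2 fold change -1.36, SE 0.0853, adjusted p = 1.18e-09) and after HDW (log2 fold change -1.25, SE 0.0527, adjusted p = 3.2e-10). Of the laminin chains, LAMA3 was lower in GCN2KO unwounded cells (log2 fold change -0.59, SE 0.109, adjusted p = 0.000173) and LAMB3 was higher (log2 fold change 1.09, SE 0.121, adjusted p = 7.42e-07). LAMA3, LAMB3 and COL17A1 were named after their values were seen. The DE genes with the largest falls in unwounded cells were KANK4, a talin regulator (log2 fold change -3.74, SE 0.186, adjusted p = 9.76e-11), EDIL3, an αV ligand (log2 fold change -3.06, SE 0.184, adjusted p = 7.21e-10), and NPNT (nephronectin, log2 fold change -2.81, SE 0.148, adjusted p = 1.8e-10). Those with the largest rises were CSRP1, a LIM protein of actin bundles (log2 fold change 1.93, SE 0.0703, adjusted p = 4.49e-12), the matricellular ligand CCN2 (log2 fold change 1.62, SE 0.188, adjusted p = 1.25e-06) and fibrillin FBN1 (log2 fold change 1.38, SE 0.185, adjusted p = 6.49e-06). After HDW, KANK4, COL4A2 and EDIL3 fell by 3.18, 2.49 and 2.39, and CCN2, FBN1 and TGFB2 rose by 1.70, 1.53 and 1.26 on the log2 scale.

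Wounding in WT cells raised 52 and lowered 28 of 114 of these pathway genes (45.6% and 24.6%, against 26.1% and 25.2% of all genes), so that the share lowered was near that of all genes. In GCN2KO cells it raised 39 and lowered 1 of 114 (34.2% and 0.877%, against 11.9% and 10.8% of all genes). The largest rises in WT were in TNC (tenascin-C, log2 fold change 1.498, SE 0.244, adjusted p = 0.000109), CCN2 (log2 fold change 1.38, SE 0.188, adjusted p = 2.01e-05) and the actin crosslinker FLNC (log2 fold change 1.32, SE 0.0973, adjusted p = 3.23e-08). ARHGEF6 (log2 fold change -1.37, SE 0.3, adjusted p = 0.00135) and SYNPO2 (log2 fold change -1.25, SE 0.138, adjusted p = 2.3e-06) fell the most. The interaction was called for 22 genes in each direction of 116 (19% each way, against 11.2% higher and 12.5% lower of all genes). After HDW, LAMB3 rose by 1.31 in WT and by 0.39 in GCN2KO (difference -0.93, adjusted p = 4.11e-05) and LAMA3 by 0.96 and 0.47 (difference -0.50, adjusted p = 0.009).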

How the data were processed

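Total RNA of NTERT keratinocytes was sequenced as paired-end reads. The authors trimmed reads with Trimmomatic, aligned them to GRCh38 with STAR and deposited featureCounts counts of uniquely mapped reads in exons, 1 file per sample, as raw counts that are not normalised. Per the methods, the authors compared groups with DESeq2. Strand, annotation release and the treatment of reads in overlapping genes were not given in the sources used here.

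From these counts, genes were tested in R 4.3.3 with edgeR 4.0.16 (quasi-likelihood test, TMM, filterByExpr with a minimum count of 10 and a minimum total of 15), with Benjamini-Hochberg adjustment over all genes. Pairwise fits used the 10 samples compared and the interaction all 20. A gene was called at an adjusted p of at most 0.05 and was a DE gene when the log2 fold change was also at least 1 in size. Normalised read counts used TMM over all 20 libraries. TPM used union exon lengths of GENCODE 44 on GRCh38, to which 56410 of 57500 genes matched. Chi-square tests of counts between replicates found no library that had been deposited under 2 names. Scripts were tested on simulated data. The genes and lists were chosen with earlier results of these data known. Named with sample values were the DE genes of any comparison and ITGA2, ITGA3, ITGA5, ITGA6, ITGAV, ITGB1, ITGB4, ITGB5, ITGB6, CD151, DST, PLEC, TLN1, FERMT1 and ZYX. From the other pathway genes, up to 3 DE genes a direction with the largest changes and no overlap between groups were named in the genotype comparisons and in WT wounding. Alternatives were DESeq2 1.42.0, other scalings and filters, 1 fit of all 20 samples, a replicate block, and leaving out libraries. Leaving out GCN2KO unwounded replicates 3 and 5 was chosen after seeing the data.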

Additional observations from a re-analysis of the deposited data

Results flagged for a closer look

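In GCN2KO HDW cells replicate 5 stood apart from the other 4 libraries for 3 genes. ITGAV was at 4630.3 normalised read counts there and at 3893 to 4058 in the others. ITGB6 was at 3753 against 2178.5 to 2623, and FERMT1 at 5321 against 3399.5 to 3658. A gap of this size was looked for in 100 groups of 5 libraries and found in these 3. Chance gives about 1 in 20, so the number found was not above the chance rate. The same library lay nearer to WT than the rest of its group on the first principal component (36.1, against 51.1 to 56.7), as did GCN2KO unwounded replicate 1 (37.5, against 50.6 to 55.5).

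The log2 fold change after HDW differed between genotypes for 6 genes by the edgeR interaction test. In GCN2KO minus WT the difference was 1.44 for ITGAM, 0.74 for ITGB8, 0.39 for DST, 0.38 for ZYX and 0.27 for VCL, and -0.46 for ITGB5.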

How the results depend on the processing

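Counts of DE genes (first unwounded, then HDW) for GCN2KO against WT were 2 and 2 higher and 4 and 4 lower. Leaving out 1 library gave 2 to 3 and 1 to 3 higher, and 4 to 5 and 4 to 6 lower. After HDW in WT it gave 0 to 0 higher and 1 to 1 lower, in GCN2KO 0 to 0 higher and 0 to 1 lower, and for the interaction 1 to 1 higher and 0 to 0 lower. Requiring a mean of 50 counts removed genes with few reads and left 1 higher in each genotype comparison, 0 lower after HDW in WT and 0 higher for the interaction. It also removed ITGA4, a DE gene in the lower direction in both genotype comparisons. By adjusted p this filter left 15 genes lower in each genotype comparison. Without a filter 1 gene was higher in GCN2KO after HDW. By adjusted p alone the counts were 5 higher and 17 lower unwounded, 7 and 16 after HDW, 13 and 3 in wounded WT, 10 and 1 in wounded GCN2KO, and 5 and 1 for the interaction. The replicate block gave the same DE counts: 2 and 2 higher and 4 and 4 lower by genotype, 0 higher and 1 lower in wounded WT, 0 and 0 in wounded GCN2KO, and 1 and 0 for the interaction. By adjusted p alone the block left 8 higher and 0 lower for HDW in GCN2KO. Same-numbered replicates did not deviate together on average (mean correlations 0.023, 0.033, 0.011 and -0.11), with single pairs from -0.33 to 0.13. The labels do not say what same-numbered samples share. The ITGB6 interaction was called with DESeq2 (adjusted p = 0.0368), DESeq2 size factors (0.0493), library size alone (0.0274), no filter (0.00237) and the block (0.0317). With 5 TPM or longest transcripts, 22 or 26 of 36 genes were expressed. No called fold change reversed. TLN1 in unwounded cells, not called at -0.0023, was 0.0062 with DESeq2, 0.0065 with DESeq2 size factors, 0.0001 with the stricter filter and 0.19 without GCN2KO unwounded replicates 3 and 5, and ranged from -0.12 to 0.082 without 1 library. ITGB4 after HDW in GCN2KO, not called, was -0.031 without those 2 libraries. By adjusted p, library size alone moved the number higher in GCN2KO HDW from 7 to 10 and in wounded WT from 13 to 10, and no filter moved the latter to 17. A single fit of all 20 samples gave 13 higher and 3 lower in wounded GCN2KO, and 11 higher and 2 lower in wounded WT. The spread of replicates (biological coefficient of variation) was 0.0587 in the WT and 0.108 in the GCN2KO pairwise fit of wounding. Counts of calls in those 2 fits are therefore not directly comparable. Genes with at most 36 reads in a library (ITGA10, ITGAM, ITGB7) are limited by depth. So is ITGA4 in GCN2KO cells, where no library held more than 12 raw reads.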
